A study of Mus musculus with 21 samples.

Results

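The mRNA levels of 10 immediate early transcription factor genes were examined in mouse B cell precursors transduced with an oncogene or with a control virus. The genes were Fos, Fosb, Jun, Junb, Jund, Ier2, Egr1, Egr2, Nr4a1 and Atf3, and they were taken by symbol from the 24421 gene symbols of the count and FPKM tables. All 10 were found, and all 10 were among the 12786 genes with enough counts to be tested. Every library came from primary bone marrow cells of 53BP1-/- C57BL/6 mice, grown with IL-7 and transduced with a MIGR1 retrovirus, so that the controls carried the 53BP1 deletion too. The viruses held no insert (empty vector, EV), BCR-ABL1p210, the fusion tyrosine kinase of Philadelphia chromosome-positive leukemia, or C-MYC, a transcription factor that drives growth. Cells were harvested between day 7 and day 9 after transduction and depleted of dead cells, and poly(A) RNA was sequenced in 2 libraries per condition, 6 in all. The animals behind each library and their age were not given in the sources used here, so the p-values measure only the spread between these libraries, which may be technical in part.

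Immediate early genes are transcribed within minutes of a growth factor, antigen receptor or stress signal, from factors that are already present in the cell and without new protein synthesis. FOS proteins pair with JUN proteins to form AP-1, a dimer that binds TGANTCA sites, and JUN proteins can also pair with each other. EGR proteins are zinc finger factors induced through the ERK pathway and serum response factor, NR4A1 is an orphan nuclear receptor induced by antigen receptor signals, ATF3 is a stress-induced partner and repressor within the same bZIP class, and IER2 is a small nuclear protein of the same induction wave. Their transcripts are short-lived and can also respond to the handling of cells before lysis.

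The libraries held between 20687092 and 24095955 counts. Myc itself had 37920 and 27450 counts in the C-MYC libraries, against 3277 to 8381 in the other 4. Trp53bp1, the 53BP1 gene, had between 342 and 723 counts per library, and since the position of these reads relative to the deleted part was not examined, they do not check the genotype. Defining B cell precursor genes (Cd79a, Cd79b, Vpreb1, Igll1, Pax5, Ebf1 and Il7r) summed to between 2246 and 4651 CPM (counts scaled to a common library size, here by the TMM method of edgeR) in each library, so the labelled cell type was present throughout. EV also held RNA of other cells. A list of 12 myeloid genes summed to 1349 and 1227 CPM in EV, 148 and 166 CPM in BCR-ABL1 and 209 and 362 CPM in C-MYC, and all 12 were lower than in EV in both. The 6 tested T and NK cell genes were also all lower in both and summed to 99.0 and 75.2 CPM in EV and to at most 7.89 CPM elsewhere. Stromal genes summed to 104 and 157 CPM in EV and to at most 6.15 CPM elsewhere. Most of the EV sum came from Col1a1 and Col1a2, with means of 64.1 and 61.2 CPM. Of the 6 tested stromal genes, edgeR called 4 lower than the control with BCR-ABL1 and 5 with C-MYC. Kitl took the other sign with C-MYC (log2 fold change 1.45, not called). Of 5 erythroid genes, 3 were at 0 in all 6 libraries. The 10 immediate early genes together summed to between 462 and 847 CPM. The part of these other cells in the differences from EV given below was not tested, and fewer cells of a type and less RNA per cell cannot be told apart in bulk libraries.

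**Figure D1:**
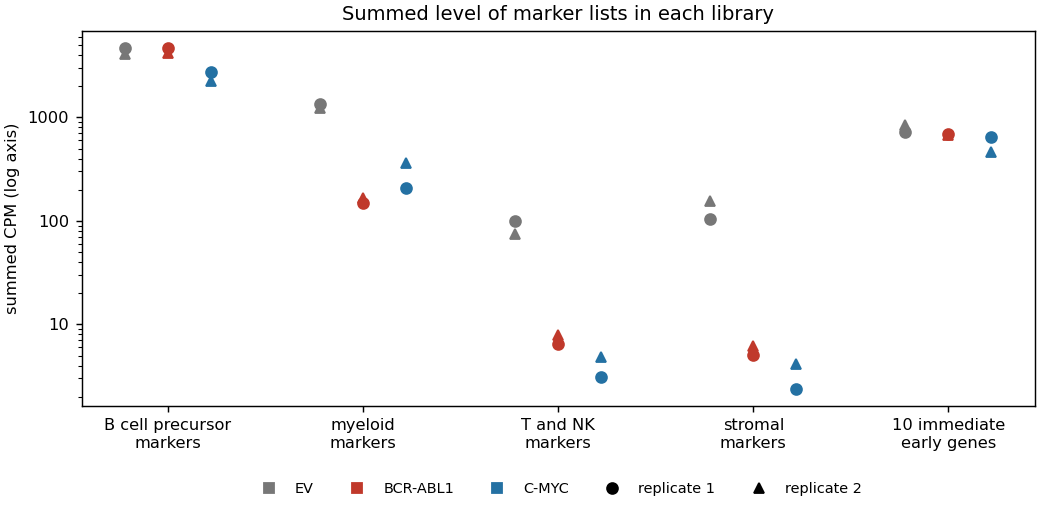
Summed CPM (log axis) of the marker lists and of the 10 immediate early genes, with 1 symbol per library, circles for replicate 1 and triangles for replicate 2. Myeloid, T and NK and stromal sums were higher in both EV libraries than in all 4 oncogene libraries, and the B cell precursor sum was lowest in the 2 C-MYC libraries.

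Egr2, Atf3 and Fosb were lower than in EV under both oncogenes, and Jun, Jund and Egr1 were lower in C-MYC. In BCR-ABL1 against EV, 3 of the 10 genes were lower, Fosb, Egr2 and Atf3, by edgeR's quasi-likelihood test (Benjamini-Hochberg adjusted p below 0.05), which called 12.0% of all tested genes lower and 5.08% higher. No member was called higher: the count was 0 by edgeR, 0 at an unadjusted p below 0.05 and 0 by DESeq2. The median log2 fold change of the 10 genes was -0.96, against 0.00 for all tested genes. With the replicate number as a block, 6 of the 10 were called, all of them lower, since Fos, Junb and Nr4a1 joined, while all genes called rose from 2180 to 3224. The count was also 6 without the filter on low counts (2570 of all genes), and it was 5 without EV replicate 1 (2700 of all genes) and 5 without EV replicate 2 (2729 of all genes). By limma on log2(FPKM + 1) it was 1, Atf3, in a fit that left Egr2 out for its low FPKM, and 2, with Egr2 (adjusted p 0.0305), without that filter.

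In C-MYC, 6 of the 10 genes were lower than in EV: Fosb, Jun, Jund, Egr1, Egr2 and Atf3. The share of all tested genes called was larger here, 24.5% lower and 18.6% higher. Again 0 members were called higher by edgeR, with 1 at an unadjusted p below 0.05 and 1 by DESeq2, which was Ier2 in both cases, and the median log2 fold change was -1.11 against -0.08 for all tested genes. The block raised the count to 8, of which Ier2 and Nr4a1 were higher, and all genes called from 5515 to 6631. Without C-MYC replicate 2, the count was 3, with 3563 of all genes called. Of the 7 B cell precursor genes, 6 were also lower in C-MYC than in EV, with sums of 2718 and 2246 CPM against 4649 and 4065 CPM. In BCR-ABL1, 2 of the 7 were lower than in EV, Il7r (log2 fold change -1.82) and Cd79b (-0.58), though the sums were 4651 and 4182 CPM. The part of these marker differences in the members' differences was not tested.

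BCR-ABL1 and C-MYC were then compared directly, which tests whether the oncogenes differed from each other, with a spread estimated from all 6 libraries, EV included. Jun and Jund were higher in BCR-ABL1 and Junb and Nr4a1 were higher in C-MYC, so that 2 of 10 genes were called in each direction, against 11.9% of all tested genes higher and 11.5% lower in BCR-ABL1. The median log2 fold change was -0.53 against 0.00 for all tested genes. The count of 4 members rested on the spread shared across the 3 conditions: it was 8 with the 4 compared libraries alone, 8 without EV replicate 1 and 8 without EV replicate 2, where all genes called rose from 2991 to 4538, 4500 and 4519. It was 1 without BCR-ABL1 replicate 1 and 1 without BCR-ABL1 replicate 2, where 618 and 1130 of all genes were called. The other 6 genes were not called, and the 3 comparisons share libraries with each other. The libraries of the 2 compared conditions did not overlap for 6 of the 10 genes in BCR-ABL1 against EV, 7 in C-MYC against EV and 9 in BCR-ABL1 against C-MYC. The same held for 7526, 9022 and 8943 of the 12786 tested genes, so a lack of overlap was common.

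**Figure D2:**
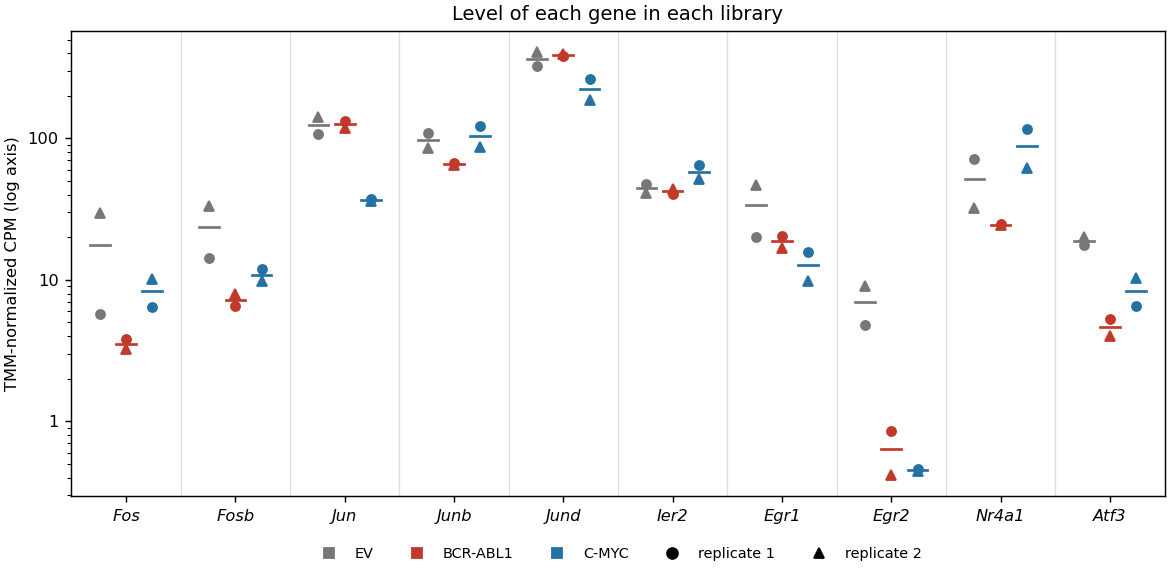
TMM-normalized CPM (log axis) of each gene in each of the 6 libraries, with circles for replicate 1, triangles for replicate 2 and a bar at the mean of each condition. The triangle of EV lies above its circle by 5.12-fold for Fos, while the BCR-ABL1 symbols of Junb, Jund, Nr4a1 and Ier2 nearly coincide.

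**Figure D3:**
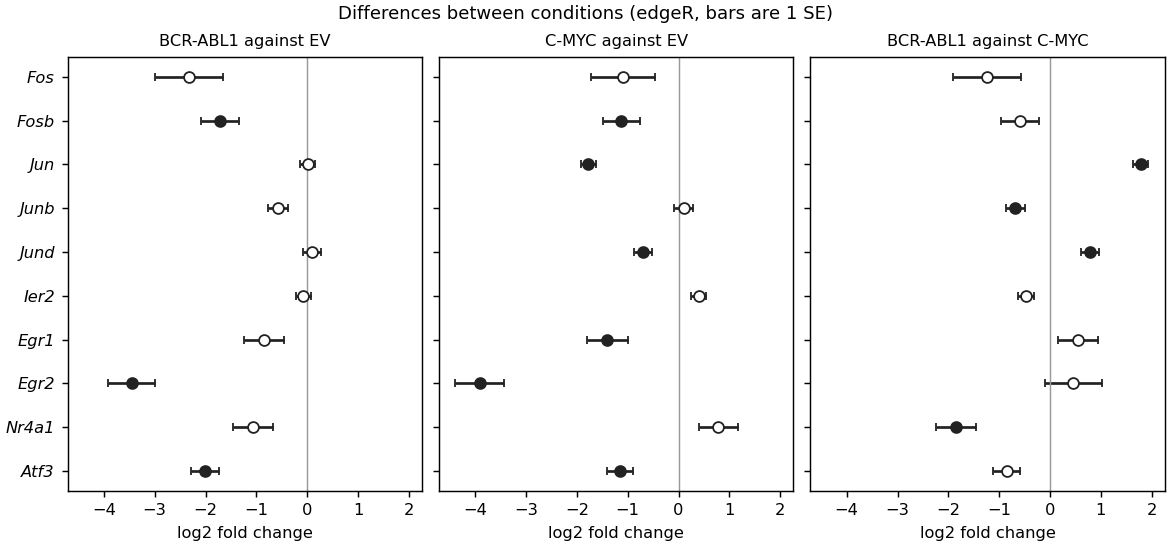
Log2 fold change of each gene in the 3 comparisons, with bars of 1 standard error from edgeR and filled symbols for an adjusted p below 0.05. Egr2 and Atf3 lie to the left in both comparisons with EV, and Jun lies at 0.01 in BCR-ABL1 against EV but at -1.77 in C-MYC against EV.

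Fos and Fosb encode the FOS-type subunits of AP-1, which do not form stable dimers with each other and need a JUN partner. Fos (chromosome 12, 85473890 to 85477273, plus strand, GRCm38) was counted 122 and 708 times in EV, with 81 and 78 counts in BCR-ABL1 and 141 and 226 counts in C-MYC, or 5.70 and 29.6, 3.84 and 3.24, and 6.48 and 10.1 CPM. EV replicate 2 stood far above all other libraries, EV replicate 1 lay below both C-MYC libraries, and both BCR-ABL1 libraries were the lowest. The log2 fold change of Fos was -2.32 (SE 0.67) in BCR-ABL1 against EV and missed the threshold with an edgeR adjusted p of 0.0517, and it was called with the replicate block (-2.03, adjusted p 0.0243) and without EV replicate 1 (-3.06, adjusted p 0.000291), but it was -0.69 (adjusted p 0.171) without EV replicate 2. In C-MYC against EV it was -1.09 (SE 0.63, edgeR adjusted p 0.199), and it took the other sign, 0.55, without EV replicate 2, while without EV replicate 1 it was -1.83 with an adjusted p of 0.00103. BCR-ABL1 against C-MYC gave -1.23 (SE 0.67, edgeR adjusted p 0.220), with a range of -1.52 to -0.87 over all libraries left out. The difference was called in 2 of those fits, and the SE given here includes the spread of the EV libraries. The 4 libraries of BCR-ABL1 and C-MYC did not overlap, like those of most tested genes in this comparison.

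Fosb (chromosome 7, 19302696 to 19310051, minus strand) followed a similar order with less spread. Its levels were 14.4 and 33.4 CPM in EV, 6.59 and 7.94 CPM in BCR-ABL1 and 12.0 and 9.83 CPM in C-MYC. Neither oncogene overlapped EV, and EV replicate 2 was again the highest library. Fosb fell by 1.72 on the log2 scale in BCR-ABL1 (SE 0.37, edgeR adjusted p 0.0181) and fell by 1.13 in C-MYC (SE 0.36, edgeR adjusted p 0.0372), and the direct difference between the oncogenes was -0.59 (SE 0.37, edgeR adjusted p 0.293), called without EV replicate 1 (adjusted p 0.0350) and without EV replicate 2 (adjusted p 0.0407). The call in BCR-ABL1 was lost without BCR-ABL1 replicate 1 (-1.58, adjusted p 0.116), without BCR-ABL1 replicate 2 (-1.85, adjusted p 0.0853) and by limma on log2(FPKM + 1) (-1.45, adjusted p 0.0575), and without EV replicate 2 the value shrank to -0.98, still called (adjusted p 0.0157). The call in C-MYC was lost in the fit of the 4 compared libraries alone (adjusted p 0.0644), by limma (adjusted p 0.0649) and without EV replicate 2 (-0.39, adjusted p 0.170), C-MYC replicate 1 (-1.27, adjusted p 0.109), C-MYC replicate 2 (-0.99, adjusted p 0.178), BCR-ABL1 replicate 1 (-1.12, adjusted p 0.0516) or BCR-ABL1 replicate 2 (-1.12, adjusted p 0.0515).

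The JUN family separated the oncogenes. Jun, the most strongly activating JUN subunit, lies on chromosome 4 (95049034 to 95052222, minus strand, a single exon). Its counts were 2300 and 3408 in the EV libraries, 2798 and 2868 in the BCR-ABL1 libraries and 807 and 802 in the C-MYC libraries, which is 108 and 142, 133 and 119, and 37.1 and 36.0 CPM. The BCR-ABL1 libraries lay between the EV libraries, and both C-MYC libraries were far below all others and nearly equal. Jun fell by 1.77 on the log2 scale in C-MYC, or 3.42-fold (SE 0.16, edgeR adjusted p 0.000325), and was 3.44-fold higher in BCR-ABL1 than in C-MYC (log2 1.78, SE 0.16, edgeR adjusted p 0.000687). In BCR-ABL1 against EV the log2 fold change was 0.01 (SE 0.15, edgeR adjusted p 0.973), and its sign was negative without EV replicate 1 (-0.17) and without BCR-ABL1 replicate 1 (-0.06).

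Jund, a JUN subunit of weaker activity that is usually expressed in resting cells too, lies on chromosome 8 (70698949 to 70700616, plus strand, a single exon). Its levels were 326 and 406 CPM in EV, 385 and 394 CPM in BCR-ABL1 and 264 and 186 CPM in C-MYC. As for Jun, both C-MYC libraries were below the other 4 and BCR-ABL1 lay within the EV range. Jund fell by 0.70 on the log2 scale in C-MYC (SE 0.18, edgeR adjusted p 0.0145) and was higher in BCR-ABL1 than in C-MYC by 0.79 (SE 0.18, edgeR adjusted p 0.0170), and the difference between BCR-ABL1 and EV was 0.09 (SE 0.17, edgeR adjusted p 0.781), or -0.06 without EV replicate 1. The first call was lost without C-MYC replicate 2 (-0.47, adjusted p 0.0717), and the second without BCR-ABL1 replicate 1 (0.81, adjusted p 0.0916), BCR-ABL1 replicate 2 (0.76, adjusted p 0.0782) or C-MYC replicate 2 (0.56, adjusted p 0.0829).

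Junb, which can restrain JUN-driven proliferation, had another order of levels than Jun and Jund. It lies on chromosome 8 (84974484 to 84978718, minus strand), with 109 and 85.7 CPM in EV, 66.6 and 64.4 CPM in BCR-ABL1 and 123 and 86.4 CPM in C-MYC. The BCR-ABL1 libraries were the lowest, without overlap, and the C-MYC libraries overlapped EV. Junb was lower in BCR-ABL1 than in C-MYC by a log2 difference of -0.68 (SE 0.19, edgeR adjusted p 0.0369), a call lost without BCR-ABL1 replicate 1 (-0.70, adjusted p 0.176), BCR-ABL1 replicate 2 (-0.66, adjusted p 0.162) or C-MYC replicate 1 (-0.40, adjusted p 0.220) and by limma on log2(FPKM + 1) (-0.58, adjusted p 0.0665). Against EV the log2 fold change was -0.57 in BCR-ABL1 (SE 0.19, edgeR adjusted p 0.0791), which was called with the replicate block (-0.56, adjusted p 0.0153) and without EV replicate 2 (-0.73, adjusted p 0.0264), and was -0.38 (adjusted p 0.183) without EV replicate 1. In C-MYC against EV it was 0.11 (SE 0.19, edgeR adjusted p 0.680) and changed sign without EV replicate 2 (-0.06) and without C-MYC replicate 1 (-0.17).

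All 3 JUN genes share exon bases with a gene on the opposite strand: Jun shares 232 with Junos, Junb 173 with Prdx2 and Jund 877 with Gm11175. The strand setting of the deposited counts is not given in the sources used here, so reads of these stretches cannot be told apart between the partners.

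Egr2 had the largest fold changes from EV among the 10 genes. Egr2 (chromosome 10, 67535475 to 67542188, plus strand), a zinc finger factor of activated lymphocytes and of macrophages, reached 103 and 216 counts with the empty vector but 18 and 10 with BCR-ABL1 and 10 and 10 with C-MYC. These correspond to 4.81 and 9.03, 0.853 and 0.415, and 0.460 and 0.449 CPM, so that all 4 oncogene libraries lay below 1 CPM and both EV libraries well above it. Egr2 fell by 3.46 on the log2 scale in BCR-ABL1, or 11.0-fold (SE 0.46, edgeR adjusted p 0.00288), and fell by 3.92 in C-MYC, or 15.1-fold (SE 0.48, edgeR adjusted p 0.000816). Both calls were kept on leaving out each library in turn, with log2 fold changes between -2.93 and -4.04 in BCR-ABL1 and between -3.39 and -4.29 in C-MYC. Between the oncogenes the log2 difference was 0.46 (SE 0.56, edgeR adjusted p 0.595), from 10 to 18 counts per library, and it became -0.13 without BCR-ABL1 replicate 1 and 0.89 without BCR-ABL1 replicate 2. The myeloid, T and NK and stromal marker sums moved in the same direction as Egr2, from EV to both oncogenes.

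Egr1 (chromosome 18, 34859823 to 34864984, plus strand), the widely used reporter of ERK signaling, was more evenly expressed. It had 20.0 and 47.2 CPM in EV, 20.5 and 16.9 CPM in BCR-ABL1 and 15.8 and 9.74 CPM in C-MYC. EV replicate 2 was the highest and EV replicate 1 lay within the BCR-ABL1 range, whereas both C-MYC libraries were below the other 4. Egr1 fell by 1.40 on the log2 scale in C-MYC (SE 0.40, edgeR adjusted p 0.0236), a call lost without EV replicate 2 (-0.65, adjusted p 0.0786) or C-MYC replicate 2 (-1.09, adjusted p 0.144). In BCR-ABL1 against EV it was -0.85 (SE 0.39, edgeR adjusted p 0.184), and this rested on the EV libraries: it was -0.10 (adjusted p 0.833) without EV replicate 2 and -1.33 (adjusted p 0.00794) without EV replicate 1. The log2 difference between BCR-ABL1 and C-MYC was 0.55 (SE 0.40, edgeR adjusted p 0.353), between 0.25 without C-MYC replicate 2 and 0.94 without C-MYC replicate 1.

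Nr4a1 (chromosome 15, 101254269 to 101274795, plus strand), a reporter gene of antigen receptor signaling in lymphocytes, differed between the oncogenes. The EV libraries gave 1524 and 768 counts, the BCR-ABL1 libraries 521 and 590 and the C-MYC libraries 2519 and 1370, or 71.2 and 32.1, 24.7 and 24.5, and 116 and 61.5 CPM. The BCR-ABL1 libraries were the lowest, and C-MYC replicate 2 lay between the EV libraries. Nr4a1 was 3.60-fold lower in BCR-ABL1 than in C-MYC (log2 -1.85, SE 0.40, edgeR adjusted p 0.0152), a call lost without BCR-ABL1 replicate 1 (-1.85, adjusted p 0.0959), BCR-ABL1 replicate 2 (-1.85, adjusted p 0.0756) or C-MYC replicate 1 (-1.32, adjusted p 0.0951). Neither difference from EV passed edgeR's test, with -1.07 in BCR-ABL1 (SE 0.39, adjusted p 0.108) and 0.78 in C-MYC (SE 0.39, adjusted p 0.139). Both were called with the replicate block, at -0.95 (adjusted p 0.0229) and 0.80 (adjusted p 0.0192). Replicate 1 exceeded replicate 2 in EV and in C-MYC alike. In BCR-ABL1 against EV, leaving out EV replicate 2 gave -1.53 (adjusted p 0.00818) and leaving out EV replicate 1 gave -0.38 (adjusted p 0.412). In C-MYC against EV, the value was 1.47 (adjusted p 0.00758) without EV replicate 1, 0.32 (adjusted p 0.416) without EV replicate 2, 0.26 (adjusted p 0.677) without C-MYC replicate 1 and 1.17 (adjusted p 0.0745) without C-MYC replicate 2.

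Ier2 (chromosome 8, 84661331 to 84662852, minus strand, a single exon) varied least. Its levels were 47.8 and 41.0 CPM in EV, 40.7 and 43.8 CPM in BCR-ABL1 and 64.9 and 51.6 CPM in C-MYC, with both C-MYC libraries above the other 4. The log2 fold change was 0.39 in C-MYC against EV (SE 0.15, edgeR adjusted p 0.0737), -0.07 in BCR-ABL1 against EV (SE 0.16, edgeR adjusted p 0.801) and -0.47 in BCR-ABL1 against C-MYC (SE 0.15, edgeR adjusted p 0.0655). With the replicate block, Ier2 was called higher in C-MYC than in EV (0.39, adjusted p 0.0372) and lower in BCR-ABL1 than in C-MYC (-0.45, adjusted p 0.0314). The first was also called without EV replicate 1 (0.51, adjusted p 0.0347), and the second without EV replicate 1 (adjusted p 0.0267) or EV replicate 2 (adjusted p 0.0261). Without C-MYC replicate 1 they were 0.23 (adjusted p 0.383) and -0.29 (adjusted p 0.339), and the sign of the difference between BCR-ABL1 and EV turned to 0.05 without EV replicate 1.

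Atf3 (chromosome 1, 191170296 to 191218039, minus strand) was lower than in EV in both oncogenes. Its counts of 376 and 479 in EV compared with 112 and 97 under BCR-ABL1 and 143 and 228 under C-MYC, or 17.6 and 20.0, 5.31 and 4.03, and 6.57 and 10.2 CPM. The EV libraries agreed closely here, and the conditions did not overlap, with BCR-ABL1 lowest and C-MYC between. Atf3 fell by 2.01 on the log2 scale in BCR-ABL1, or 4.03-fold (SE 0.27, edgeR adjusted p 0.00280), and fell by 1.16 in C-MYC, or 2.24-fold (SE 0.26, edgeR adjusted p 0.00870). The first call was kept on leaving out each library in turn, and the second was lost without C-MYC replicate 1 (-0.87, adjusted p 0.0602). The direct difference of -0.85 (SE 0.27, edgeR adjusted p 0.0553) was called with the replicate block (-0.83, adjusted p 0.0353) and without EV replicate 1 (adjusted p 0.0329), EV replicate 2 (adjusted p 0.0324) or C-MYC replicate 1 (-1.13, adjusted p 0.0472), and it was -0.49 (adjusted p 0.303) without C-MYC replicate 2.

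The sequences before the start sites of the 3 genes lower under both oncogenes, and of Jun, lower in C-MYC alone, are printed below with their exact matches to response elements. Variants of an element and sites outside the windows were not searched, so a gene without a match may still carry such an element. RefSeq promoter windows (GRCm38.p6, 250 bases before to 50 after each start) were found for 8 of the 10 genes, with 12 windows in all, and none for Ier2 and the remaining zinc finger gene. They were searched on both strands for TGACGTCA, the full CREB and ATF element, for TGACG, its first part and so contained in it, for TGANTCA, the AP-1 element, and for the CArG box bound by serum response factor. TGACG was found in 6 of the 8 genes (Fos, Fosb, Junb, Egr2, Nr4a1 and Atf3) and in 20.8% of all 32851 windows, and a CArG box in Egr2 alone and in 1.63% of all windows. TGACGTCA and TGANTCA matched 0 of the 8, against 1.79% and 7.81% of all windows. The members are counted by gene, with a match in any of their windows (5 for Egr2), and the background by window. The 2 kinds of share are therefore not on the same scale. The start of the Jund window lay 1210 bases upstream of the GENCODE gene start, and those of the Egr2 and Atf3 windows printed here lay inside the genes, 2394 and 34706 bases downstream of their outermost GENCODE starts. The 250 bases before the start are given 5′ to 3′ on the strand of the gene, with capitals for TGACG (or CGTCA on the other strand) and for the CArG box: Fosb at chr7:19310046-19310295 (minus strand), with a match that begins 60 bases before the start; Egr2 at chr10:67537619-67537868 (plus strand, 1 of 5 annotated starts), with TGACG matches 111 and 55 bases and the CArG box 72 bases before it; Atf3 at chr1:191183334-191183583 (minus strand), with a match 7 bases before it; and Jun at chr4:95052223-95052472 (minus strand), with no match.
Fosb: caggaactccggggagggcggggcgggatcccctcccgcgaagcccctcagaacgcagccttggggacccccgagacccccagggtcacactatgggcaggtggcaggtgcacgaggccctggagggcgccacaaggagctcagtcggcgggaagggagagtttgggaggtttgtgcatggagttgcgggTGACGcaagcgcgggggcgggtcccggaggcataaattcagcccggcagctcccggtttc
Egr2: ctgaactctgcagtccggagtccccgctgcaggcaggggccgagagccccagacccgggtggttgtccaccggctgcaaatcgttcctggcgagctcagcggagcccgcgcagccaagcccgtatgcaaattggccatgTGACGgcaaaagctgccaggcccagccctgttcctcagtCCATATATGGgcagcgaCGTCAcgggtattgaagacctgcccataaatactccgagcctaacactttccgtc
Atf3: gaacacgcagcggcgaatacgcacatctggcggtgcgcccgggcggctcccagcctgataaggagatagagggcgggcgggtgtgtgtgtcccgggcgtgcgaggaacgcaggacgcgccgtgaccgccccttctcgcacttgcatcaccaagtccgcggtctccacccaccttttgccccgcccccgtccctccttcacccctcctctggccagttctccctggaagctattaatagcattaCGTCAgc
Jun: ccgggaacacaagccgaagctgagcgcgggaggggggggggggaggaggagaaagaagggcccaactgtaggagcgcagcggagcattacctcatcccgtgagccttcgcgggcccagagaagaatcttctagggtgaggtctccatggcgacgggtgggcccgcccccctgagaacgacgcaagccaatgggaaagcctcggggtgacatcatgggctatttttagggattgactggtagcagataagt

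Between genes, levels were compared per length, as FPKM, fragments scaled by transcript length and library size. In EV the order was Jund 72.9, Jun 68.2, Ier2 40.7, Junb 33.9, Fosb 13.9, Atf3 11.4, Egr1 10.99, Nr4a1 9.08, Fos 4.69 and Egr2 2.34 FPKM (means of 2 libraries). By FPKM, Jund and Jun did not differ beyond their spread, and neither did any neighbors from Fosb down to Egr2. In BCR-ABL1 the first 4 kept that order at 73.7, 65.2, 36.8 and 21.7 FPKM, followed by Egr1 5.79, Nr4a1 4.12, Fosb 4.04, Atf3 2.68, Fos 0.889 and Egr2 0.204 FPKM, and only Nr4a1 and Fosb overlapped as neighbors. In C-MYC, Ier2 came first with 48.9 FPKM, then Jund 40.3, Junb 33.4, Jun 18.3, Nr4a1 14.3, Fosb 5.83, Atf3 4.66, Egr1 3.76, Fos 2.03 and Egr2 0.141 FPKM. There the libraries of Ier2 overlapped those of Jund, Jund those of Junb, Jun those of Nr4a1, Fosb those of Atf3, and Atf3 those of Egr1. The 3 JUN genes and Ier2 thus held the first 4 places in every condition by FPKM. By CPM per kilobase of annotated exon, which counts the exons of all transcripts, 3 of the 4 kept such a place in every condition, since Nr4a1 passed Jun in C-MYC. On that scale Jund stood far above the rest in every condition, at 219 against 39.2 for Jun in EV. It had 233 against 39.5 for Jun in BCR-ABL1, and 135 against 38.3 for Ier2 in C-MYC. The nearness of Jund and Jun in EV and the first place of Ier2 in C-MYC thus held by FPKM only.

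The balance of AP-1 subunits was described from sums of FPKM. The FOS family (Fos, Fosb, Fosl1 and Fosl2) summed to 15.5 and 33.6 FPKM in EV, 5.25 and 6.06 FPKM in BCR-ABL1 and 9.35 and 10.1 FPKM in C-MYC, without overlap. The JUN family summed to 159 and 190 FPKM in EV, 163 and 158 FPKM in BCR-ABL1 and 103 and 80.6 FPKM in C-MYC. JUN thus exceeded FOS in every library, by 10.3 and 5.66 times in EV, 31.0 and 26.1 times in BCR-ABL1 and 11.0 and 7.98 times in C-MYC, where the BCR-ABL1 libraries stood above the other 4. Within the JUN sum, Jun held 36.3% and 41.2% in EV, 42.0% and 39.2% in BCR-ABL1 but 17.6% and 22.8% in C-MYC. Junb held 23.6% and 15.9%, 13.5% and 13.5%, and 37.3% and 34.9%, so that Junb exceeded Jun by FPKM in C-MYC alone. By CPM per kilobase, Junb exceeded Jun in EV too, at 42.3 against 39.2. Jund, at 219 there, exceeded both by far, so the JUN sums, shares and ratios to FOS given here hold for FPKM only. Fosb held between 52.9% and 73.2% of the FOS sum by FPKM, but by CPM per kilobase Fos exceeded Fosb in every condition, at 7.50 against 3.82 in EV, 1.51 against 1.16 in BCR-ABL1 and 3.54 against 1.75 in C-MYC. Sums and shares are descriptions of transcript levels and were not tested.

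**Figure D4:**
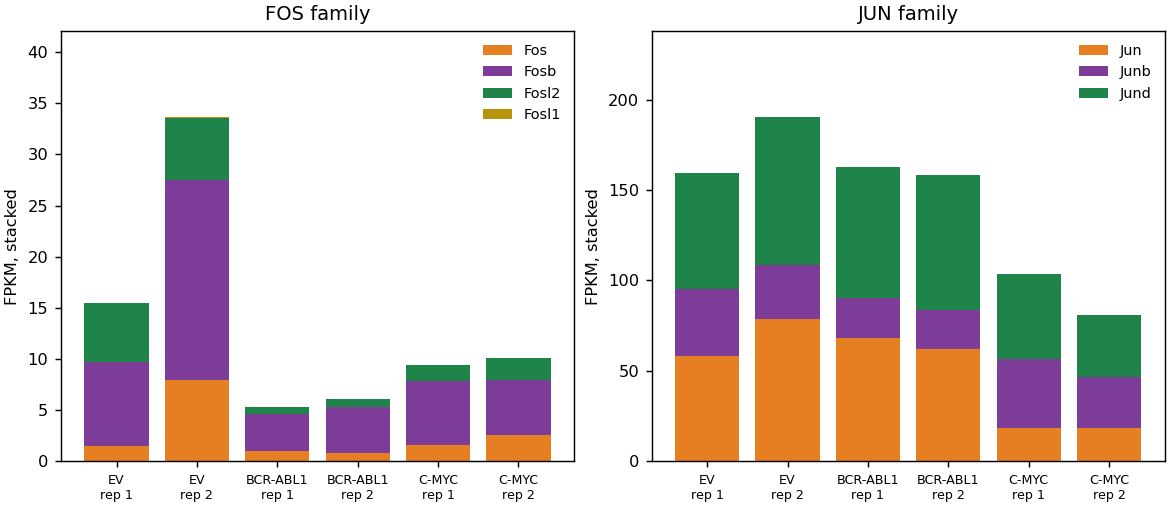
FPKM of the FOS family (left) and JUN family (right) genes, stacked for each of the 6 libraries, on separate linear axes from 0. The FOS bars fall from 15.5 and 33.6 in EV to at most 10.1 elsewhere, and the Jun segment is short in the 2 C-MYC libraries only.

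Libraries with the same replicate number were also set side by side, because they deviated from their group means together. In the first pair the log2 CPM difference of Fos between BCR-ABL1 and EV was -0.56, and in the second it was -3.16. Egr1 gave 0.04 and -1.48 in the same comparison, and Egr2 gave -2.38 and -4.18. In C-MYC against EV, Fosb gave -0.26 and -1.75, Egr1 -0.34 and -2.27, and Jun -1.53 and -1.98. The low Jun level in C-MYC and the low Egr2 and Atf3 levels were thus present in both pairs, while the Fos, Fosb and Egr1 differences given here were larger in the second pair.

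Over the 6 libraries the 10 genes did not form a single profile, as far as Pearson's r of log2 CPM describes it. Jun and Jund had an r of 0.925, Junb and Nr4a1 0.943, Nr4a1 and Ier2 0.913, and Fos and Fosb 0.888, whereas Jun and Ier2 had -0.883 and Jun and Fos -0.03. Among 10622 genes averaging 50 counts or more, the most alike were Zfp831 for Jun (0.998), Tmsb10 for Jund (0.995), Ctsa, a lysosomal protease, for Egr2 (0.998), Il6ra, the interleukin 6 receptor chain, for Atf3 (0.998), Kctd3 for Fos (0.995), Itih5 for Fosb (0.996), Ggta1 for Junb (0.986), Parp6 for Egr1 (0.997) and Ift27 for Ier2 (0.992). These points share the 3 conditions and the library depth, and high values arise easily among so many genes over 6 libraries.

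The wider pathway was described by lists of other immediate early genes, of the factors and kinases upstream of them, of MAPK phosphatases and of AP-1 and EGR partners. Of 26 other immediate early genes, 23 were tested (Fosl1, Egr4 and Cyr61 had too few counts). In BCR-ABL1 against EV, 11 were lower and 0 higher, where 0 were also higher at an unadjusted p below 0.05 and by DESeq2, and their median log2 fold change was -0.80. The largest named decreases were those of Ier3 (-3.60), Fosl2 (-2.95), a further FOS subunit, and the polo-like kinases Plk3 (-2.09) and Plk2 (-1.97). In C-MYC against EV, 13 were lower, with a median of -0.84 over the list. Among those with a mean of at least 50 counts, the largest decreases were those of Egr3 (-2.68), Arc (-2.28), Ier3 (-2.26) and Plk3 (-2.19). Only Trib1, named after its value was seen, was higher (0.90). Between BCR-ABL1 and C-MYC, 4 were higher and 3 lower, among them Fosl2 (-1.41), Egr3 (1.29), Csrnp1 (1.11) and Rhob (-1.10). The listed values are edgeR log2 fold changes, all called. Of all tested genes, edgeR called 12.0% lower and 5.08% higher in BCR-ABL1 against EV. In C-MYC against EV it called 24.5% lower and 18.6% higher. Between the oncogenes, 11.9% were higher and 11.5% lower in BCR-ABL1.

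Among 12 upstream factors (serum response factor, its cofactors, the CREB group and the MEF2 genes), edgeR called 0 in BCR-ABL1 against EV, with 5 at an unadjusted p below 0.05 and 1 by DESeq2. In C-MYC against EV 5 were lower, Elk3 (-1.01), Mkl1 (-0.90), Crem (-0.70), Elk4 (-0.60) and Mef2a, the last named after its value was seen. Directly compared, Elk3 (1.43), Crem (1.24), Mkl2 (0.70) and Mkl1 (0.60) were higher in BCR-ABL1 than in C-MYC, 4 of the 12. The share lower in C-MYC than in EV was 41.7%, against 24.5% of all tested genes. The share higher in BCR-ABL1 than in C-MYC was 33.3%, against 11.9%. Of 15 upstream kinases, Mapk9, the JNK2 gene, alone was lower in BCR-ABL1 (-0.57). In C-MYC Rps6ka1 (-0.82), Mapk9 (-0.59) and Araf (-0.40) were lower. Mapk8, the JNK1 gene, was higher there (0.53), opposite to Mapk9. Rps6ka1 was the 1 kinase called between the oncogenes (0.80). The kinase shares, 6.67% lower in BCR-ABL1 and 20.0% lower and 6.67% higher in C-MYC, rest on 1, 3 and 1 of 15 genes. All tested genes had 12.0%, 24.5% and 18.6%, and no difference from these is read from so few genes.

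The MAPK phosphatases, some of which are themselves induced by ERK signaling and switch it off, included the largest named difference between the oncogenes. Dusp6, the ERK-specific phosphatase, was higher in BCR-ABL1 than in EV by 1.00 (SE 0.18, edgeR adjusted p 0.00957) and lower in C-MYC by a log2 fold change of -3.17 (SE 0.21, edgeR adjusted p 0.000175), a direct difference of 4.17 (SE 0.21, edgeR adjusted p 0.000134). Egr1, an ERK reporter too, was not called between the oncogenes. Dusp1 was lower than in EV in BCR-ABL1 (-1.65, edgeR adjusted p 0.0483) and C-MYC (-1.67, edgeR adjusted p 0.0227). Its EV libraries lay far apart, at 15.1 and 49.6 CPM, with replicate 2 the higher one as for Fos. Dusp7 was higher in BCR-ABL1 than in C-MYC (1.03). In all, 1 of 9 phosphatases was higher in BCR-ABL1 than in EV (11.1%, against 5.08% of all tested genes) and 2 were lower (22.2%, against 12.0%). In C-MYC 4 were lower than in EV (44.4%, against 24.5%), and 3 were higher in BCR-ABL1 than in C-MYC (33.3%, against 11.9%). With 9 genes, each share rests on few calls. These counts include Dusp8, lower than in EV in both oncogenes, and Dusp4, lower in C-MYC than in EV or BCR-ABL1. Both were named after their values were seen.

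Of 15 partners and corepressors, 5 were lower in BCR-ABL1 than in EV, Nab2 (-3.04), the EGR corepressor, Jdp2 (-0.99), Irf8 (-0.95), and the low-count genes Batf2 and Batf3, named after their values were seen. In C-MYC 7 were lower, among them Batf2 and Batf3 again and, of those with a mean of at least 50 counts, Nab2 (-1.77), Bach2 (-1.31), Batf (-0.86) and Irf8 (-0.78), and Mafg was higher (0.75). Between the oncogenes, Jdp2 (-1.74), Mafg (-0.73) and Mafk (-0.51) were lower and Nab1 (0.57) was higher in BCR-ABL1. The share of the list lower than in EV was 33.3% in BCR-ABL1 (12.0% of all tested genes) and 46.7% in C-MYC (24.5%). Between the oncogenes, 20.0% were lower (11.5%) and 6.67% higher (11.9%) in BCR-ABL1. Irf8 and Fosl2 are also expressed in myeloid cells, whose 12 marker genes were all lower than in EV in both oncogenes. Their part in these list counts was not tested.

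**Figure D5:**
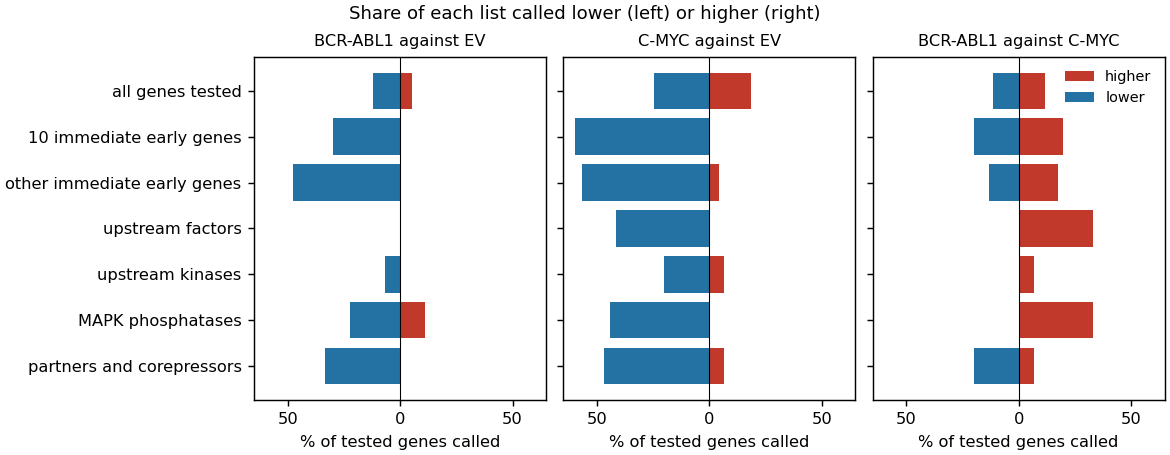
Percentage of tested genes called lower (left of 0) and higher (right of 0) by edgeR at an adjusted p below 0.05, for all genes, the 10 immediate early genes and 5 further lists, in each comparison. Both lists of immediate early genes lie to the left in the comparisons with EV, and in BCR-ABL1 against C-MYC the 10 genes are split evenly, at 20.0% in each direction.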

How the data were processed

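RNA-seq of 6 libraries was analysed, 2 for each of the 3 conditions, with conditions and replicate numbers taken from the labels. The γH2AX tracks of the other samples were not analysed here. The authors aligned reads to GRCm38 with STAR 2.5.0 and deposited whole-number counts per gene symbol. The counting program and its strand setting are not given in the sources used here. The deposited FPKM values were computed by the authors with StringTie 1.3.0, and how transcripts were combined per symbol is not given there.

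From the counts, edgeR 4.0.16 (R 4.3.3) fitted all 6 libraries in 1 quasi-likelihood model without covariates, after filterByExpr (12786 of 24421 genes) and TMM scaling, with Benjamini-Hochberg adjusted p below 0.05 over all tested genes as the threshold. Log2 CPM used a prior count of 2. A standard error is the absolute log2 fold change divided by the square root of F. DESeq2 1.42.0, limma 3.58.1 on log2(FPKM + 1) or with a pseudocount of 0.1 (genes with a mean FPKM of at least 1), no filter, the 4 compared libraries alone, a replicate block and leaving out each library were alternatives. Where 1 library of a condition was left, it was assumed to vary like the other conditions. Same-numbered libraries deviated together (correlations 0.408, 0.294 and 0.319 over 10623 genes), so the numbers were taken to pair the libraries from the data; the labels do not say what a number marks. Each library was counted as a replicate, since the authors report RNA from duplicate experiments. Replicates differed by far more than counting noise (chi-square per degree of freedom 42.9, 10.1 and 19.1 in EV, BCR-ABL1 and C-MYC), which does not tell biological from technical spread.

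The scripts were tested on simulated counts. The members and lists were chosen with earlier results of these data known. Of the lists, at most the 4 called genes of largest change with a mean of at least 50 counts were named per comparison, and the most alike gene of each member, out of 3 ranked, except for Nr4a1. A marker gene and a most alike gene are not reported here, and the sums leave the former out. Positions are 1-based, from GENCODE on GRCm38. Promoter sequences are from RefSeq (GRCm38.p6). Trac, a T cell marker, was not used here. Figures were drawn with matplotlib 3.10.9 in Python 3.11.15.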

Additional observations from a re-analysis of the deposited data

How the results depend on the processing

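Of the members' log2 fold changes recomputed under other settings, 195 kept direction and side of the threshold, 13 lost and 20 gained a call and 6 took the other sign, and on leaving out a library the numbers were 136, 20, 16 and 8. The members called in BCR-ABL1 against EV went from 3 to 6 without the filter on low counts, to 6 with the replicate block, to 1 by limma on log2(FPKM + 1) or log2(FPKM + 0.1), which left Egr2 untested for its low FPKM, and to 2 by limma without a filter, and those in BCR-ABL1 against C-MYC from 4 to 8 with the 4 compared libraries alone and to 1 by limma without a filter. The block gave 8 in C-MYC against EV and 6 in BCR-ABL1 against C-MYC, and no member's call was lost under it. Leaving out a library gave 2 to 5, 3 to 9 and 1 to 8 members in BCR-ABL1 against EV, C-MYC against EV and BCR-ABL1 against C-MYC, and 665 to 2729, 3329 to 6077 and 618 to 4519 of all genes, for which the counts with every library were 2180, 5515 and 2991. By limma on log2(FPKM + 1), log2(FPKM + 0.1) and without a filter, 1055, 1043 and 1425 of all genes were called in BCR-ABL1 against EV, and the last gave 1412 in BCR-ABL1 against C-MYC, where the 4 libraries alone gave 4538.

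Changes of sign concerned values that were not called. By limma, Jun in BCR-ABL1 against EV was -0.05 with both pseudocounts and without a filter (-0.0491, -0.0495 and -0.0491), and Junb in C-MYC against EV was -0.03 (-0.0307, -0.0318 and -0.0307). Leaving out a library gave ranges with both signs for Jun (-0.17 to 0.23), Jund (-0.0569 to 0.26) and Ier2 (-0.18 to 0.0487) in BCR-ABL1 against EV, Fos (-1.83 to 0.55) and Junb (-0.17 to 0.35) in C-MYC against EV, and Egr2 (-0.13 to 0.89) in BCR-ABL1 against C-MYC. Beyond these constructions the cause was not tested. With 2 libraries per condition, the spread between EV libraries limits Fos, Fosb, Egr1 and Nr4a1 most, and Egr2 rests on 10 to 18 counts per library in both oncogenes.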

Other observations

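The 10 immediate early genes had a larger median fold between replicates than all tested genes in each condition. In EV their median fold between the 2 libraries was 1.57, against 1.20 for all tested genes, and it was 1.42 against 1.13 in C-MYC and 1.15 against 1.10 in BCR-ABL1. Fos differed 5.12-fold between the EV libraries, more than 99.78% of tested genes, Egr1 2.35-fold, Fosb 2.32-fold and Nr4a1 2.22-fold. Replicate 2 was the higher one for Fos, Fosb, Egr1 and Egr2, and replicate 1 for Nr4a1. Atf3 and Ier2, by contrast, differed by 1.14-fold and 1.17-fold in EV. In C-MYC, Nr4a1 had the largest spread of the 10, at 1.88-fold, and Egr2 the smallest, at 1.02-fold. These are descriptions of 2 libraries each.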
